A study of Mus musculus with 19 samples.

Results

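Hyperpolarization-activated cyclic nucleotide-gated (HCN) channels open when a neuron's membrane potential becomes more negative and carry a mixed sodium and potassium current known as the h-current. Cyclic AMP binds the intracellular end of each subunit and makes the channel open more readily, and the subunits assemble into tetramers, so the mix of subunits sets how a channel behaves. In cortical pyramidal neurons the channels are known for their accumulation in distal apical dendrites, where they shorten synaptic responses. Pex5l, also called TRIP8b, is a brain protein related to the peroxisomal import receptor Pex5. It binds the intracellular end of HCN subunits and changes both their number at the cell surface and their response to cyclic AMP, and its alternative amino-terminal ends differ in what they do to surface expression. The 4 genes described here, Hcn2, Hcn3, Hcn4 and Pex5l, were taken by name out of 24130 Ensembl genes listed in at least 1 library, together with their 9 listed transcripts out of 46931.

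The libraries were made from polyadenylated RNA of primary somatosensory cortex (S1) of male C57BL/6J mice aged 56 days, for which no treatment or engineered allele is named. The 6 adjacent laminar segments, A to F from the pia to the white matter, corresponded mostly to layers 1 to 3 (A), layer 4 (B), upper layer 5 (C), lower layer 5 (D), layer 6 (E) and layer 6b (F). Segments A, C, D, E and F were each a single library pooling 8 mice, and segment B was sequenced as 2 libraries, B1 and B2, each pooling 4 littermates. The 7 libraries therefore hold only 1 pair of replicates, which differ by litter. All segments came from the same 8 mice, so that the 7 libraries are not independent animals and the tests below measure spread between libraries. Dorsal and lateral cortex samples were not analysed here.

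All values are FPKM, fragment numbers scaled for the length of the exon model and for all mapped fragments. Comparisons between genes thus allow for length and depth but not for base composition. Each value has its deposited 95% interval, which covers counting and transcript assignment but not variation between mice. The deposited coverage implies between about 31300000 fragments in A and 74900000 in B2. Mitochondrial genes took between 5.03% of summed FPKM in F and 21.8% in A, with 7.76% in B1 and 18.2% in B2. Of 7 layer markers tested, 7 were called by the trend test with depth described below, beside 36.5% of all genes. With the median of ratios, a rescaling described below, 3 of the 7 were called with a positive and 3 with a negative slope. Cux2, a marker of upper layers, had 43.5 FPKM in B1 and 2.82 FPKM in F. Foxp2, a marker of layer 6, had 0.392 FPKM in A and 13.9 FPKM in F. The summed level of 8 oligodendrocyte markers was 326 FPKM in A, 841 and 850 in B1 and B2, 1643 and 2202 in C and D, and 4090 and 12506 in E and F. The summed level of 6 general neuronal markers was lowest in A (1201 FPKM) and highest in D (2786 FPKM). Snap25 alone gave 490 FPKM of this in A and 1658 in D. Snap25, Syt1, Map2 and Tubb3 were each lowest in A. Rbfox3, however, was highest in A (337 FPKM), and Nefl was lowest in F (74.5 FPKM). In bulk tissue, fewer cells of a type and less RNA per cell cannot be told apart.

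The sequences below show the coding ends of the subunits and the coding starts of Pex5l, and their relation to the values was not tested. The last 30 coding bases of the 3 subunits, before the stop codon, are shown because Pex5l binds this end of the HCN proteins. Capitals mark the last 9 bases (GENCODE M21 transcripts, GRCm38, each on the coding strand).
Hcn2 (chr10:79735508-79735537, plus strand): tctgcgcgctcgcgcctctctTCCAACTTG
Hcn3 (chr3:89147602-89147631, minus strand): cccagaggtccccaaatttctGCCAACATG
Hcn4 (chr9:58860731-58860760, plus strand): ccagtacgctccaaactgccgTCTAATTTA
Of the 9 capital bases, Hcn2 shared 7 with Hcn3 and 6 with Hcn4, and Hcn3 shared 4 with Hcn4. These counts are of bases and not of amino acids. Read as codons, the 9 bases encode serine, asparagine and leucine in both Hcn2 and Hcn4. In Hcn3 they encode alanine, asparagine and methionine.

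Pex5l was listed with 6 transcripts that began at 3 places, a far upstream promoter, a downstream promoter 60212 bases closer to the shared exons, and an internal start. The coding starts of the 3 named below are shown because the upstream and downstream forms encode different amino-terminal ends. Capitals mark coding bases ahead of the first exon that all 3 translate, and the 30 bases in lower case open that exon (chr3:33015047-33015076, GRCm38, minus strand, GENCODE M21).
ENSMUST00000108226 (upstream start, capitals in chr3:33142849-33142869): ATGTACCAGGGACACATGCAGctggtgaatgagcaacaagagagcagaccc
ENSMUST00000078226 (downstream start, capitals within chr3:33080465-33082068): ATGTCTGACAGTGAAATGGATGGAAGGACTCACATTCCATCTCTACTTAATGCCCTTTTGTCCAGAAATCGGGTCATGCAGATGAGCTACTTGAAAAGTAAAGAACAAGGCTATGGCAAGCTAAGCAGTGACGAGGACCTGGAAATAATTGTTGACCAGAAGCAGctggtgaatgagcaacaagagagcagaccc
ENSMUST00000108224 (downstream start, capitals within chr3:33080465-33081993): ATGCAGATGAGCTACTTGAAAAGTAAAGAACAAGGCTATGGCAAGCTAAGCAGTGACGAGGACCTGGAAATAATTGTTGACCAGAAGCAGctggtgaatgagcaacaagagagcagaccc
The upstream form thus has 21 coding bases ahead of the shared exon, the main downstream form 165 and the shorter downstream form 90. Those 90 bases are the same as the last 90 of the 165, so the shorter form has none of its own there. The coding regions measured 1701, 1845 and 1773 bases, and that of the internal-start transcript, which lacks the 5' coding exons, measured 1032 bases.

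**Figure D1:**
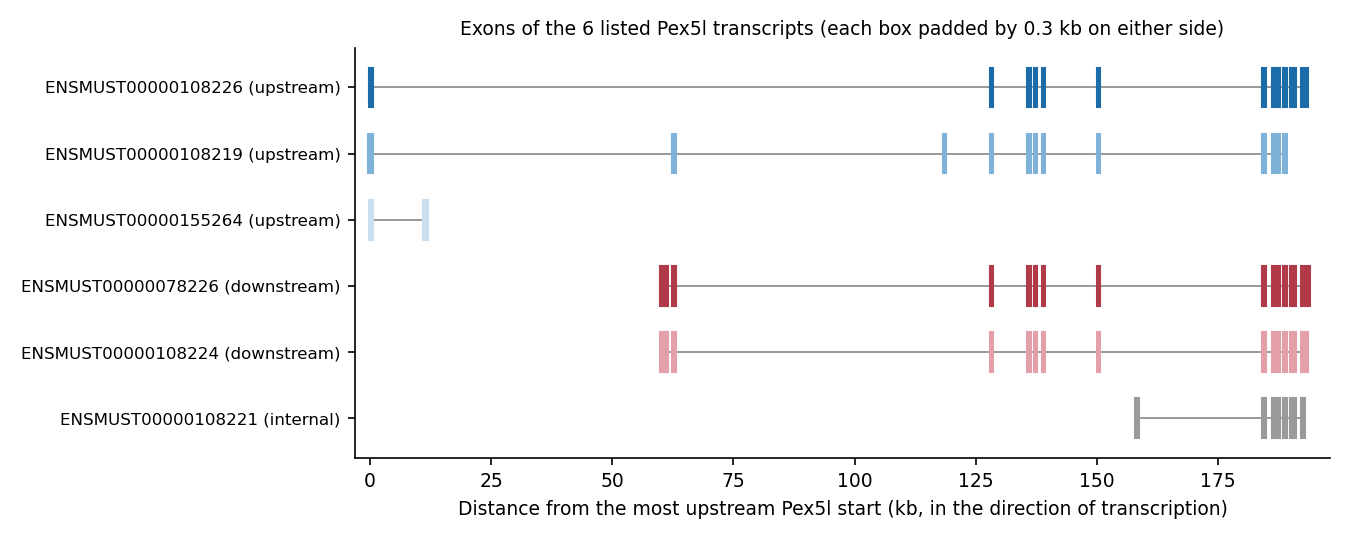
Exons (boxes) and introns (lines) of the 6 listed Pex5l transcripts against distance in kb from the most upstream start, in the direction of transcription, in GENCODE M21. The upstream transcripts ENSMUST00000108226 and ENSMUST00000108219 and the 2 downstream transcripts share exons that begin 128171 bases from that start. ENSMUST00000155264 ends before these exons, and ENSMUST00000108221 begins after several of them, 158168 bases from the most upstream start.

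Hcn2 (ENSMUSG00000020331, chr10:79179379-79198853 in mm9) encodes a subunit found widely in the brain, with slower gating and a strong response to cyclic AMP. It had 57.6 FPKM in A, 74.4 and 47.2 in B1 and B2, 57.4 and 56.3 in C and D, and 49.4 and 59.3 in E and F. The highest and the lowest library were the 2 replicates of layer 4, and the other 5 lay between them. The whole range was 1.58-fold. In order of level, B2, E and D had separate intervals, D, C, A and F overlapped each with the next, and B1 stood clear above F. Hcn2 exceeded 93.2% to 96.5% of genes in each library.

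The trend with depth was tested with limma on log2(FPKM + 0.1), using a linear and a quadratic term for segment position (1 for A to 6 for F) and Benjamini-Hochberg adjustment over the 17844 genes that averaged 0.1 FPKM or more. The p is from an F-test of both terms together, so a call can rest on the curve as well as on the slope. A gene was called when the adjusted p was at most 0.05, and calls are sorted by the sign of the slope. By this rule 36.5% of genes were called, 28.4% with a positive and 8.19% with a negative slope. Fold changes from it are on the log2(FPKM + 0.1) scale and understate those of low genes. The test did not call Hcn2, whose slope was -0.02 log2 units per segment (SE 0.053, limma adjusted p = 0.920).

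The difference between the layer 4 replicates was 0.66 log2 units for Hcn2, against a median absolute difference of 0.32 for the 17844 genes and a 95th percentile of 1.27. The annotated sequence of Hcn2 had a GC content above that of 99.4% of genes, and across genes the B1 to B2 difference went with GC content (Spearman's rho 0.503 over 16394 genes, which are not independent replicates). When the values were corrected for GC content within each library, the Hcn2 difference between B1 and B2 became -0.06 log2 units, and the levels ran from 47.8 in A to 62.8 in C. The sign of its slope turned positive with that correction (0.05 log2 units per segment, limma adjusted p = 0.237).

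Hcn3 (ENSMUSG00000028051, chr3:88949996-88964118 in mm9) encodes a slowly activating subunit that responds little to cyclic AMP. It had 0.797 FPKM in A, 2.22 and 1.61 in B1 and B2, 2.76 and 2.33 in C and D, and 2.01 and 2.69 in E and F. Segment A was the lowest, with an interval (0.664 to 0.930) clear of every other library, and the range was 3.46-fold. B2 was next, also separate from both neighbours in the order, while E, B1, D, F and C overlapped each with the next. The slope was 0.22 log2 units per segment (SE 0.075), and Hcn3 missed the threshold of the trend test (limma adjusted p = 0.0595). It passed under 5 of the alternatives, for example at 0.0385 with the GC content correction and at 0.0260 without B1. Without A the slope was 0.09 and the adjusted p 0.708. Without F the slope was 0.02, and the adjusted p of 0.0340 rested on the quadratic term (-0.25, SE 0.064).

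Hcn4 (ENSMUSG00000032338, chr9:58671319-58708762 in mm9) encodes the slowest subunit, best known from the pacemaker cells of the heart and from the thalamus. It was the lowest member, with 0.143 FPKM in A, 0.766 and 0.291 in B1 and B2, 0.678 and 0.383 in C and D, and 0.114 and 0.262 in E and F. These values stood on an estimated 16.8 fragments in A, 18.7 in E and up to 141 in B1, and the widest interval was 65.4% of the mean level, so that Hcn4 fell short of the precision (50%) that the study asked of a gene before it assigned a layer pattern. B1 and C were the highest and overlapped, and both were clear of the other 5 libraries, which overlapped each with the next in order. B1 exceeded B2 by 2.63-fold. The replicates of layer 4 thus spanned a wider range than that between C and D. The slope was -0.08 log2 units per segment (SE 0.14, limma adjusted p = 0.376). The Hcn4 transcript measured 3753 bases in the deposited values but 6118 in GENCODE M21, whereas those of Hcn2 and Hcn3 had the same length in both. What the shorter model does to the Hcn4 level and its ratios was not tested.

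Pex5l (ENSMUSG00000027674, chr3:32848556-33042169 in mm9) was the most abundant member in the 5 libraries other than A and B1. It had 30.4 FPKM in A, 71.4 and 53.8 in B1 and B2, 102 and 92.0 in C and D, and 85.8 and 103 in E and F. On the deposited scale, segment A was the lowest, both layer 4 libraries came next, and the 4 libraries of layers 5 to 6b were the highest. The deposited intervals did not overlap between these 3 sets of libraries. The range was 3.39-fold. Among the deep libraries, E, D, C and F overlapped each with the next. Pex5l was called, with a positive slope of 0.28 log2 units per segment (SE 0.058, limma adjusted p = 0.0141) and a negative quadratic term of -0.13 (SE 0.042). It was the only member of the 4 that was called, beside 36.5% of all genes tested.

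The Pex5l call was lost without segment A, where the slope was 0.21 (SE 0.080) and the limma adjusted p 0.251. Without that library the calls over all genes also fell, from 6521 to 1402 of 17844. An F-test across the 6 segment means, which leaves only the B1 to B2 difference as error, gave 0.317 and called 0 of the 17844 genes in limma, with 2881 at an unadjusted p of at most 0.05. Leaving out any other library gave an adjusted p between 0.00630 and 0.0360. Without F, however, the slope was 0.13 (SE 0.080) and the quadratic term -0.22 (SE 0.054), so that the call there was of a curve and not of a rise to the deepest segment. Segment A had the highest mitochondrial share and the lowest depth. As a share of non-mitochondrial FPKM, Pex5l remained lowest in A (34.3) and was called with a positive slope (limma adjusted p = 0.0188). Rescaling by the median of ratios shifts all genes of A up by 0.24 log2 units and those of F down by 0.19. It turned the calls over all genes from 5060 positive and 1461 negative to 2724 positive and 2283 negative. Pex5l remained called there, with a slope of 0.20 (limma adjusted p = 0.0425). Oligodendrocyte and neuronal marker sums also differed between libraries, as given above, and their part in this trend was not tested.

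**Figure D2:**
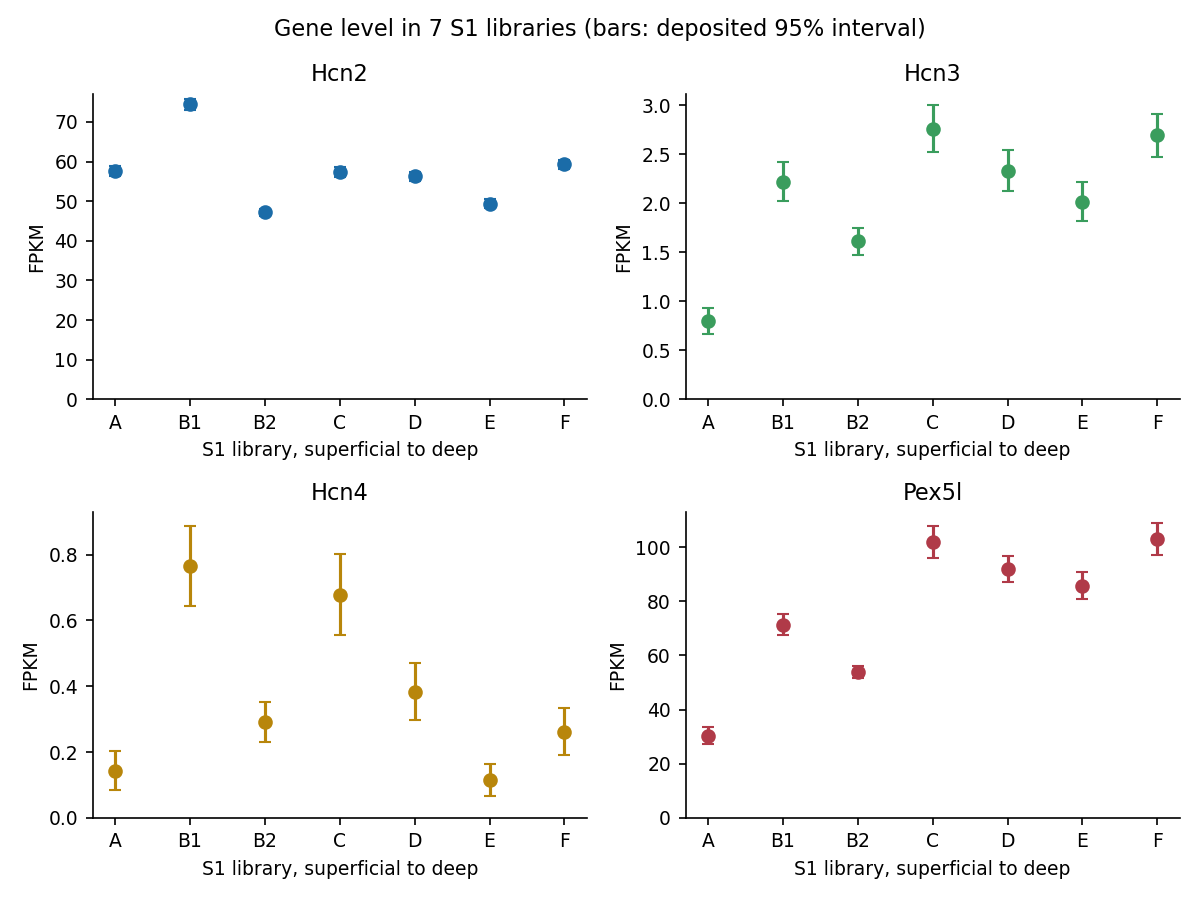
Level in FPKM (vertical axes, linear from 0) of Hcn2, Hcn3, Hcn4 and Pex5l in each S1 library, ordered from superficial to deep. Points are the deposited values and bars the deposited 95% intervals. B1 and B2 are the only replicates. Hcn2 was highest in B1 and lowest in B2, whereas Hcn3 and Pex5l were lowest in A.

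When the 95% intervals were compared over the 21 pairs of libraries, Hcn2 did not overlap in 16, Hcn3 in 15, Hcn4 in 15 and Pex5l in 18. The median gene did not overlap in 12, and 52.6% of all combinations of a gene and a pair did not. The replicates themselves, B1 and B2, had separate intervals for all 4 members and for 48.5% of all genes, so that an interval that fails to overlap is not by itself a difference between layers. Between A and F, 71.1% of genes did not overlap, Hcn3 and Pex5l among them. With the intervals widened 2-fold the counts fell to 14 for Hcn2, 9 for Hcn3, 8 for Hcn4 and 14 for Pex5l, with a median of 6.

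Averaging B1 and B2, the 6 segments shared each member's summed level as follows. Segment A held 16.9% of the Hcn2 level but 6.37% of Hcn3, 6.79% of Hcn4 and 6.38% of Pex5l. Hcn2 was spread between 14.5% in E and 17.8% in B. Hcn4 had its largest shares in layer 4 and upper layer 5, with 25.1% in B and 32.2% in C, and its smallest in E, with 5.41%. The Hcn4 share of B rested on B1 (0.766 FPKM), since B2 (0.291 FPKM) was below D (0.383 FPKM), with overlapping intervals. Hcn3 and Pex5l had shares within about 2 percentage points of each other, with 15.3% and 13.2% in B, 22.1% and 21.4% in C, 16.1% and 18.0% in E, and 21.5% and 21.7% in F.

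Because a ratio of 2 genes in the same library does not depend on how that library was scaled, the subunits were also compared with each other. Hcn2 made up 98.4% of the summed FPKM of the 3 subunits in A, 96.1% in each layer 4 library, 94.3% and 95.4% in C and D, and 95.9% and 95.3% in E and F. Hcn2 exceeded Hcn3 by 72.3-fold in A (95% interval 61.3 to 85.3), 33.5-fold and 29.3-fold in B1 and B2, 20.8-fold in C (19.0 to 22.7), 24.2-fold in D, and 24.5-fold and 22.0-fold in E and F. Segment A thus stood apart, with the values of the layer 4 replicates between it and the deeper libraries. The intervals of these replicates overlapped each other, and that of B2 (26.9 to 31.9) also overlapped that of E (22.2 to 27.1). Against segment position the log2 ratio had r = -0.73 and Spearman's rho = -0.74 (7 libraries). In exact 2-sided permutation tests the p-values were 0.0421 for r and 0.0706 for rho, or 0.0976 and 0.148 after Benjamini-Hochberg adjustment over the 3 ratios, so the relation with depth did not hold up. With the GC content correction r was -0.64.

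The ratio of Hcn2 to Hcn4 had no order by depth. It was 402 in A, 97.1 and 162 in B1 and B2, 84.6 and 147 in C and D, and 432 and 227 in E and F. The highest values were in the most superficial segment and in layer 6, and the lowest in B1 and C, whose intervals overlapped. Its r with position was 0.19 (exact permutation p = 0.675, 7 libraries).

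Hcn3 exceeded Hcn4 by 5.56-fold in A, 2.90-fold and 5.53-fold in B1 and B2, 4.07-fold and 6.08-fold in C and D, 17.6-fold in E (95% interval 11.5 to 27.1) and 10.3-fold in F (7.78 to 13.6). The ratio was thus highest in layers 6 and 6b, where these intervals were clear of B1, B2, C and D. The log2 ratio had r = 0.72 with position (exact permutation p = 0.0651, adjusted 0.0976) and rho = 0.68 (exact permutation p = 0.0984, adjusted 0.148).

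**Figure D3:**
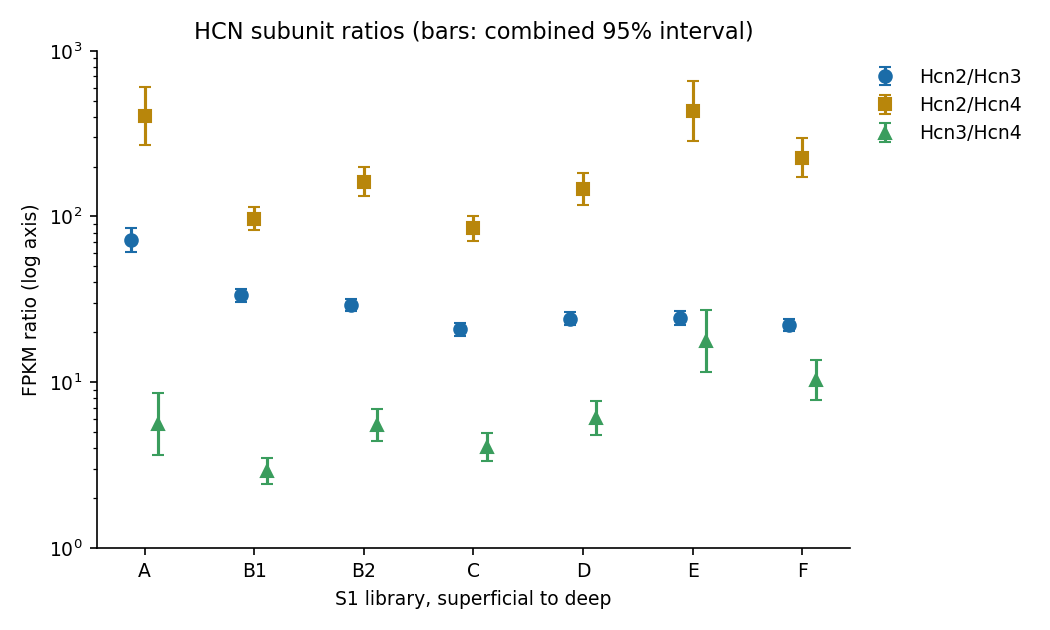
FPKM ratios of Hcn2 to Hcn3, Hcn2 to Hcn4 and Hcn3 to Hcn4 (log axis) in each S1 library from superficial to deep. Bars are 95% intervals combined from those of the 2 genes. The Hcn2 to Hcn3 ratio was highest in A (72.3) and lowest in C (20.8), and the Hcn3 to Hcn4 ratio was highest in E (17.6).

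The level of Pex5l relative to Hcn2, the most abundant of the 3 subunits, was lowest in A. Its FPKM was 0.527 times that of Hcn2 in A, 0.959 and 1.14 in B1 and B2, 1.78 and 1.63 in C and D, and 1.74 and 1.74 in E and F. Every library of layers 5 to 6b was above both layer 4 libraries, and both were above A. No test was run on this ratio. The GC content of Hcn2 was above that of 99.4% of genes and that of Pex5l above 54.3%, so the ratio can carry GC effects of a library. With the GC content correction, Pex5l had 34.4 in A, 77.1 and 56.8 in B1 and B2, and 80.1 in E. Hcn2 then had 47.8 in A, 54.4 and 56.9 in B1 and B2, and 56.1 in E. The ratio remained lowest in A, but B1 and E then lay close together.

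Levels of the members were related over the 7 libraries for 6 pairs. Hcn3 and Pex5l had r = 0.963 (exact permutation p = 0.00119, adjusted over the 6 pairs 0.00714) and rho = 0.929 (exact permutation p = 0.00675, adjusted 0.0405). Both were lowest in A, then in B2, and highest in C and F, and both were higher in B1 than in B2. When the 2 libraries farthest from the median Hcn3 level, A and B2, were left out, r was 0.785 (exact permutation p = 0.117, n = 5), and the relation no longer passed with the narrower range and fewer libraries. Without A alone r was 0.912 (exact permutation p adjusted to 0.0583, 6 libraries). The rho was less stable than r. Its adjusted exact permutation p was 0.0738 with the median of ratios and 0.1 with B1 and B2 averaged. It was 0.1 to 0.2 when any library was left out, but 0.0167 as a share of non-mitochondrial FPKM. On the log2 scale, among all genes of sufficient precision, Pex5l ranked 26th of 10143 genes by its correlation with Hcn3, and Hcn3 ranked 115th by its correlation with Pex5l.

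None of the other 5 pairs passed. Hcn2 and Hcn4 had r = 0.697 (exact permutation p = 0.0714, adjusted 0.214, 7 libraries) but rho = 0.357 (exact permutation p = 0.444, adjusted 0.713), and r was 0.397 without B1 and B2. Hcn3 and Hcn4 had r = 0.527 and rho = 0.5, and Hcn4 and Pex5l r = 0.317 and rho = 0.179. For Hcn2, r was 0.231 with Hcn3 and 0.066 with Pex5l, and rho was 0.286 and 0.179. Their exact permutation p-values, adjusted, lay between 0.422 and 0.873 for r and were 0.713 for rho. Both Hcn2 coefficients turned negative as shares of non-mitochondrial FPKM, at -0.236 and -0.414.

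**Figure D4:**
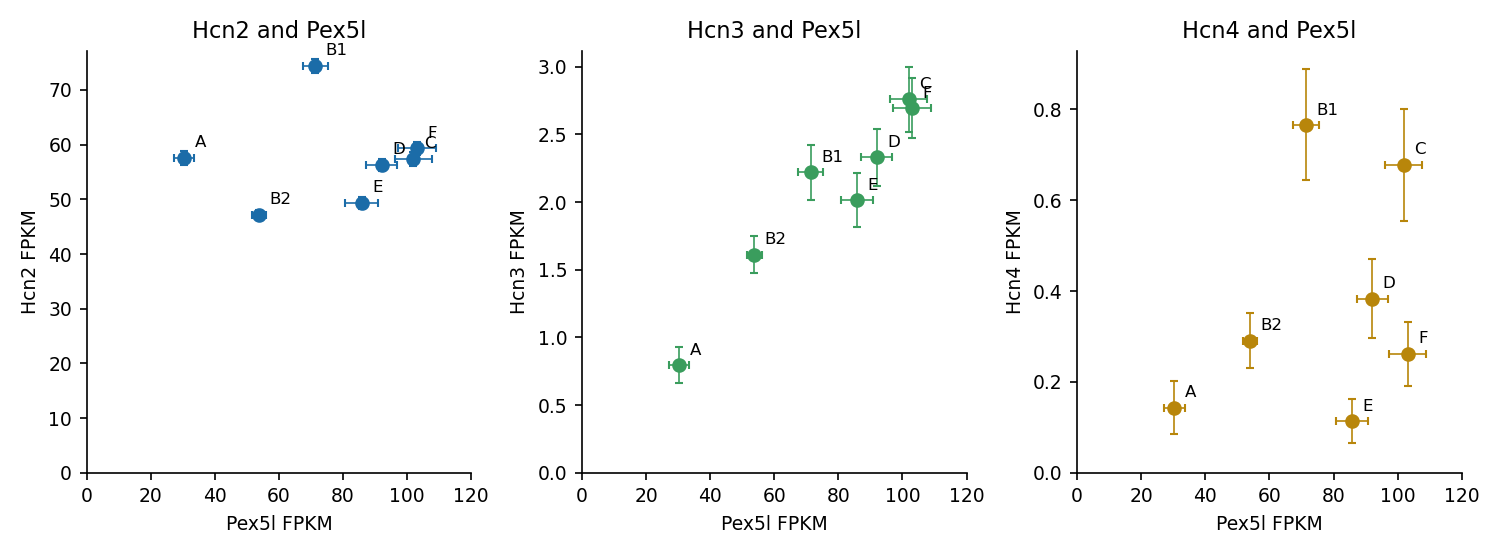
FPKM of each HCN subunit (vertical axes, linear from 0) against FPKM of Pex5l (horizontal axes) in the 7 S1 libraries, with deposited 95% intervals as bars. Hcn3 lay along a line with Pex5l from A to F (r = 0.963), whereas Hcn2 (r = 0.066) and Hcn4 (r = 0.317) did not.

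Each HCN gene was listed with 1 transcript, so that its transcript level was the gene level, whereas Pex5l was divided among forms. The main downstream form, ENSMUST00000078226, had 10.7 FPKM in A, 16.3 and 27.7 in B1 and B2, 39.6 and 38.2 in C and D, and 31.1 and 39.4 in E and F. The main upstream form, ENSMUST00000108226, had 8.54 FPKM in A, 37.4 and 21.9 in B1 and B2, 45.5 and 38.9 in C and D, and 34.2 and 27.8 in E and F. Both were lowest in A. The upstream form was highest in C, with an interval (42.4 to 48.6) clear of F (25.0 to 30.5), whereas the downstream form had overlapping intervals in C and F. The 2 forms also differed in the opposite sense between the layer 4 replicates, the upstream form being higher in B1 and the downstream form in B2.

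The shorter downstream form, ENSMUST00000108224, was listed at 0 in A, B1, B2, C and D, at 2.43 FPKM in E (1.39 to 3.47) and at 13.3 FPKM in F (11.1 to 15.5). The same limma trend test over the 33551 transcripts that averaged 0.1 FPKM or more called 10.5% of them (8.59% with a positive and 1.94% with a negative slope), and this was the only Pex5l transcript called (positive slope, limma adjusted p = 0.0279). A value listed at 0 may be a failed assignment between near-identical forms and not an absence, and the call was lost without A, B2, C, D, E or F in turn (limma adjusted p 0.0629 to 0.129). In the same leave-outs 0 transcripts of any gene were called, with 7159 to 11342 at an unadjusted p of at most 0.05. The main forms missed the threshold, with limma adjusted p-values of 0.0638 for the downstream and 0.0581 for the upstream form.

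Of the remaining forms, ENSMUST00000108219, an upstream transcript annotated with a retained intron and no coding region, had 1.29 FPKM in A, 8.16 in B1, 4.21 in B2 and between 7.41 and 8.60 in C to F. The internal-start form, ENSMUST00000108221, which would encode a protein without the amino-terminal part, was listed at 0 in B2 and had between 3.33 FPKM in A and 14.7 in F elsewhere, with intervals as wide as 91.1% of its mean. A 2-exon non-coding transcript from the upstream promoter, ENSMUST00000155264, was listed at 6.46 FPKM in A and at 0 in the other libraries. The limma adjusted p of these 3 was between 0.0910 and 0.565.

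Summed by start, upstream transcripts made up 53.6% of the Pex5l level in A, 63.9% and 48.6% in B1 and B2, 53.1% and 50.3% in C and D, and 48.7% and 34.6% in E and F. Downstream transcripts made up 35.4% in A, 22.9% and 51.4% in B1 and B2, 38.9% and 41.5% in C and D, and 39.1% and 51.1% in E and F. Layer 6b thus had the lowest upstream share, but the downstream share in B2 matched that in F. The ratio of upstream to downstream level was 2.79 in B1, 0.945 in B2 and 0.677 in F, and in A, C, D and E it lay between 1.21 and 1.52. In A this ratio included the non-coding ENSMUST00000155264, listed there only. Without that transcript, an alternative chosen after seeing the data, the ratio in A was 0.914 and the upstream and downstream shares 41.1% and 45.0%. The replicates of layer 4 therefore spanned C, D and E in either case, A only with that transcript counted, and F in neither. The downstream level of F, however, counted ENSMUST00000108224, whose assignment was uncertain as given above. Without that form F had 35.7 FPKM upstream and 39.4 downstream, beside 26.2 and 27.7 in B2. Whether F differed from the replicates was not tested. In the labels the mean internal insert of the sequenced fragments was 239 bases in B1, 193 in B2, 164 in A and between 172 and 208 in the others. Part of F was also read at greater length. Whether insert or read length bears on how reads were divided among these forms was not tested.

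**Figure D5:**
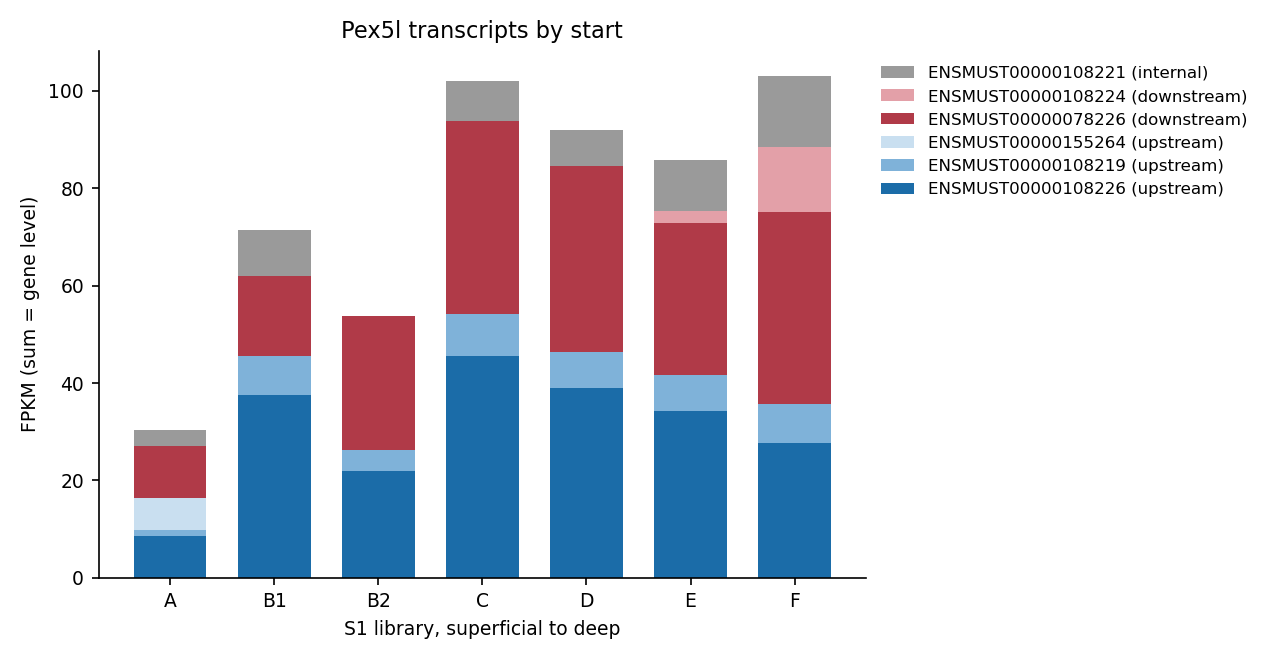
Stacked FPKM (vertical axis, from 0) of the 6 listed Pex5l transcripts in each S1 library, so that the height of a bar is the gene level. Blue shades start upstream, red shades downstream and grey internally. The upstream part was 63.9% of the bar in B1 and 48.6% in its replicate B2, and 34.6% in F.

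The first condition of the study for isoforms that differ between layers compares 2 libraries. In it, 1 isoform goes up while a different isoform of the gene goes down, each with separate 95% intervals. The study further required that the predicted layer enrichments of the isoforms differ, which was not applied here. Among isoforms of sufficient precision (widest interval at most 50% of the mean), Pex5l met the interval condition in 3 of the 21 pairs. The 3 pairs were B1 with B2, B1 with F, and E with F. Of 1982 genes with at least 2 such isoforms, 81.8% met it in at least 1 pair. The replicates B1 and B2 met it for 38.1% of genes, more than B1 and F (28.1%) or E and F (23.8%), and the median gene met it in 4.5 pairs. Without B1 only the E and F pair was left, of 15. Counting all listed isoforms, whatever their precision, gave 13 of 21 pairs.

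The pathway around the channels was described with lists of genes. Of 13 tested genes for proteins reported to bind or modify HCN channels, 7 were called, 6 with a positive and 1 with a negative slope, and the median slope was 0.14 log2 units per segment against 0.08 over all genes, of which 36.5% were called (28.4% positive, 8.19% negative). Apba2, a scaffold protein at synapses, had the highest mean level (101 FPKM) and was not called (limma adjusted p = 0.284). Kctd3, which binds HCN3 and raises its surface expression, rose from 6.74 FPKM in A, 7.94 in B1 and 7.39 in B2 to 17.3 in F (slope 0.26, SE 0.035, limma adjusted p = 0.00616). Src, a tyrosine kinase that acts on HCN subunits, had the largest p of the list (limma adjusted p = 0.545). The calls fell to 3 positive and 1 negative with the median of ratios, and to 2 positive and 0 negative with the GC content correction. Over all genes the calls were then 2724 positive and 2283 negative of 17844, and 2253 positive and 2039 negative of 16394.

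Adenylyl cyclases make the cyclic AMP that HCN channels bind. Of 9 tested, 3 were called with a positive and 1 with a negative slope (median slope 0.18), beside 28.4% and 8.19% of all genes. Adcy1, a calcium-stimulated neuronal cyclase, was both the most abundant (mean 90.1 FPKM) and the one with the smallest p. It had 40.0 FPKM in A, 88.4 and 68.3 in B1 and B2, 99.6 and 106 in C and D, and 132 and 96.1 in E and F (slope 0.24, SE 0.046, limma adjusted p = 0.00903). It was lowest in A, as Pex5l was, but highest in E. Adcy8 had the largest p (limma adjusted p = 0.499).

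Of 14 tested phosphodiesterases that can break down cyclic AMP, 6 were called, all with a positive slope (median 0.15), beside 28.4% of all genes. Under either the median of ratios or the GC content correction, 4 were called with a positive slope. All genes called in that direction were then 2724 of 17844 and 2253 of 16394. Pde1a, a calcium- and calmodulin-stimulated enzyme, had both the highest mean level and the smallest p. It had 14.2 FPKM in A, 21.9 and 32.3 in B1 and B2, 77.3 and 77.5 in C and D, and 81.0 and 75.7 in E and F (slope 0.50, SE 0.066, limma adjusted p = 0.00485). Its levels in layers 5 to 6b were all above both layer 4 libraries, and these above A. These were the same 3 sets of libraries as for Pex5l on the deposited scale. Pde4c had the largest p (limma adjusted p = 0.718).

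Related channels with a cyclic-nucleotide-binding type domain comprised 13 listed genes, of which 8 were tested, and 3 were called, all with a negative slope (median -0.04), beside 8.19% of all genes called in that direction and 36.5% in either. The median of ratios and the GC content correction each left 2 called with a negative slope, beside 2283 of 17844 and 2039 of 16394 genes. Kcnh3, a potassium channel of the forebrain, was the most abundant, with 80.0 FPKM in A, 86.6 in B1, 46.9 in B2 and between 32.1 and 34.5 in C to F (slope -0.28, SE 0.070, limma adjusted p = 0.0347). Kcnh4, of the same subfamily, had 7.95 FPKM in A and 0.871 in F (limma adjusted p = 0.0196). These 2 were lower in the deep libraries, where Pex5l was higher. The third, Kcnh7, named because it was called and not by the naming rule, had a slope of -0.02 and was lowest in A and F (6.94 and 8.14 FPKM, limma adjusted p = 0.0387, and 0.0513 and 0.0505 under those alternatives). Kcnh2 had the largest p (limma adjusted p = 0.788).

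Genes of peroxisomal protein import were included because Pex5l resembles the import receptor. Pex5 itself had a mean of 13.3 FPKM, against 76.9 FPKM for Pex5l, and was not called (slope 0.09, limma adjusted p = 0.139). Of the 10 tested, 4 were called, all with a positive slope (median 0.15), beside 28.4% of all genes. With the median of ratios and with the GC content correction, 1 was called with a positive slope. All genes called in that direction were then 2724 of 17844 and 2253 of 16394. Pex14, a docking protein of the peroxisomal membrane, was the most abundant (mean 19.8 FPKM, limma adjusted p = 0.402). Pex26 had the largest p (limma adjusted p = 0.672).

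The genes most like each member were ranked by Pearson's r of log2(FPKM + 0.1) over the 7 libraries, among genes of sufficient precision with a mean of at least 1 FPKM. The ranking is a description, since the libraries share tissue, depth and base composition effects. Genes picked by r over these libraries also tend to share the member's high and low libraries through that choice alone. For Hcn2 they were Mib2 (r = 0.983), Zfp219, E130309D02Rik, Tmem259 and Fam207a (r = 0.969). All 5 were highest in B1 and lowest in B2 or E, as Hcn2 itself was highest in B1. For Hcn3 they were Frmd5 (r = 0.993), Nob1, Cyp2u1, Oprl1 and Pdhx (r = 0.986), each lowest in A and higher in B1 than in B2.

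For Hcn4 the nearest were Tlcd1 (r = 0.990), Acsbg1, Dusp28, Insm1 and Ntpcr (r = 0.942), each highest in B1. For Pex5l they were Nudt9 (r = 0.996), Pdhx, Sv2a, a synaptic vesicle protein, Ptprn2, a protein of dense-core vesicles, and Limk2 (r = 0.993). Ptprn2 had 23.5 FPKM in A, 67.2 and 48.8 in B1 and B2, 96.4 and 83.9 in C and D, and 85.1 and 88.7 in E and F, close in level to Pex5l as well as in order. Pdhx, a component of the pyruvate dehydrogenase complex, was among the 5 nearest of both Hcn3 and Pex5l.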

How the data were processed

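Per the labels and the study's methods, the authors mapped paired reads to mm9 with TopHat 1.0.13 and deposited FPKM with 95% intervals per Ensembl 57 gene and transcript, computed by Cufflinks 0.8.3, for each S1 library; tables of newly assembled transcripts were not used. The same deposited tables hold each isoform's fraction of its locus and its read coverage, also computed by the authors with Cufflinks. The libraries were not strand-specific. Pklr was the 1 listed gene whose span overlapped a member (Hcn3), with at most 0.0357 FPKM. Transcripts were assigned to genes by position (41643, those of the members included), or by GENCODE M21 identifier where position was not unique (4278). The other 1010 were not assigned. Symbols, exons and sequences came from GENCODE M21 (GRCm38), so mm9 and GRCm38 positions are each given with their build. Numbers of fragments were estimated from the ratio of deposited coverage to FPKM at 50 bases from either end, which overstates F, part of which was read at greater length. The intervals hold no variation between mice.

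From the FPKM, trends were fitted with limma 3.58.1 in R 4.3.3 (pseudocount 0.1, mean of at least 0.1 FPKM, eBayes with intensity trend) and tested on simulated data. Ratios and relations were tested by exact permutation (scipy 1.17.1). Ratio intervals combine the relative errors of both genes. GC content was corrected by the median of 50 bins in each library. B1 and B2 come from separate litters, and p-values measure spread about a smooth trend over mostly unreplicated segments. Alternatives covered pseudocount, filter, scaling, averaging of B1 and B2, and leaving out each library. Members and lists were chosen with earlier results of these data known. The genes named were the members, their 5 nearest genes, and from each pathway list those with the highest mean and the lowest and highest p. Some genes of the channel family and of the lists are not reported here.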

Additional observations from a re-analysis of the deposited data

How the results depend on the processing

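No paired analysis was possible because only segment B carries replicate numbers. Under the planned settings other than leaving out a library, 103 values were unchanged. For a test this means the same direction and side of the threshold, and for a count a move of at most 1.5 times. Of the rest, 6 counts moved by over 1.5 times, 6 values changed direction, 3 newly passed and 1 no longer passed. The limma trend called 6521 genes, but 4292 with the GC content correction, where fewer genes were tested, 0 in the F-test across 6 segments (2881 at an unadjusted p of at most 0.05), and 1402 (without A) to 9200 (without B1) when a library was left out. For transcripts it called 3532, 2034 without the filter on FPKM, and 0 to 5121 when a library was left out. Pex5l had a limma adjusted p of 0.317 in the 6-segment test and 0.00630 to 0.251 over the leave-outs. Hcn3 passed with only genes of sufficient precision (0.0494), the GC content correction (0.0385) and B1 and B2 averaged (0.0464), and ranged from 0.0260 to 0.708 over the leave-outs. The Hcn2 slope reversed with the GC content correction (limma adjusted p = 0.237), without B1 (0.828 for the gene, 0.841 for its transcript) and without E (0.994 and 0.998), with 0.740 and 0.764 as the lowest leave-out values. The Hcn4 slope reversed without E (0.253 for the gene, 0.456 for its transcript), and its leave-outs ran from 0.0648 to 0.642 (0.196 to 0.778 for the transcript). No trend could be fitted for ENSMUST00000155264 without A, its only library.

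With intervals widened 2-fold, pairs that did not overlap fell to 9 for Hcn3 and 8 for Hcn4. Without B1 or B2, of 15 pairs, the interval condition on isoforms was met by Pex5l in 1 to 2. With all isoforms, which include forms listed at 0, it was met in 13 of 21, beside a median of 4 over all genes. The r of the Hcn2 to Hcn4 ratio with position ran from -0.078 to 0.688 over the leave-outs, the lowest being without E. The r of Hcn2 with Hcn3 was -0.020 with the median of ratios and -0.236 as a share of non-mitochondrial FPKM. That of Hcn2 with Pex5l was -0.263 and -0.414 in these, -0.157 with B1 and B2 averaged, and -0.160 to 0.277 over the leave-outs. The r of Hcn3 with Pex5l ran from 0.912 (without A, no longer past the threshold) to 0.982, whereas their rho passed in none of the leave-outs. For these changes the cause was not tested. Depth limits Hcn4 most, at 16.8 to 141 estimated fragments.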
